A study of Mus musculus with 8 samples.

Results

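The measurement described here is the change of ribosome loading between mouse embryonic stem (ES) cells and epiblast-like aggregates (ELA), gene by gene. Ribosome loading of a gene is its level in RNA recovered with the ribosomal protein Rpl10a (Rpl10a-IP) divided by its level in total RNA of the lysate (input). The change is the log2 ratio in ELA minus the log2 ratio in ES, centred on the median gene. All 3160 of the 3160 genes of the deposited table were analysed. The question it addresses is which mRNAs were taken up by ribosomes, or left them, beyond what their own abundance gave.

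Both stages came from the E14Tg2A line, one ES cell line of strain 129/Ola. ES cells grew on gelatin in serum with LIF and were taken at day 0. ELA are the floating clumps these cells form in a chemically defined minimal medium, taken at day 2. In each stage there were 2 input and 2 Rpl10a-IP libraries, 8 in all, and the cells of every group were treated with cycloheximide, which stalls ribosomes on the mRNA. Input was drawn from the same lysate as the Rpl10a-IP, so the label numbers pair them. Of the defining markers written down for other cell types, none of those for primitive endoderm, mesoderm, trophoblast or fibroblasts was among the analysed genes, and of 7 early neural markers only Nes was. Nes, an intermediate filament of neural progenitors, had 92.44 and 94.03 scaled counts in ES input and 554.1 and 522.4 in ELA input, a total RNA change of 2.52 on the log2 scale, and its loading changed by -0.42 (adjusted p 0.0417, limma).

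Loading is a relative measure. An antibody against a ribosomal protein can recover an mRNA that carries a single ribosome or many, so the ratio does not count ribosomes. It is read here as the share of an mRNA that is ribosome-bound compared with other mRNAs. Whether recovery depended on the number of ribosomes per mRNA was not tested. A rise of all mRNAs together cannot be seen. In ES cells translation is held low, and the exit from the naive state is known for a growth of protein synthesis. An mRNA can change its output in 2 ways, through its amount or through the share that ribosomes hold. When both move the same way they amplify each other, and when they move apart ribosome-bound RNA stays closer to where it was.

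The input libraries of ELA were shallow. They held 159587 and 410192 reads over these genes, against 3898414 and 5380139 in ES input and between 16076207 and 23483388 in the 4 Rpl10a-IP libraries. The largest library exceeded the smallest 147-fold. In ELA input a gene had a median of 26 reads in replicate 1 and 66 in replicate 2, and 1232 genes fell under 20 reads in at least 1 library. Stage and input depth cannot be told apart in this design. The study's methods describe low complexity in ELA input replicate 1 and leave it out, so each class of genes is given with and without it.

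Of 3160 genes, 1743 changed their loading at an adjusted p under 0.05 (55.2%; limma, Benjamini-Hochberg over all genes). Loading was higher in ELA for 876 (27.7%) and lower for 867 (27.4%). The change was at least 2-fold for 488 genes (15.4%), 197 higher (6.23%) and 291 lower (9.21%). Over all genes the SD of the change was 0.70 on the log2 scale, 95% of changes lay between -1.46 and 1.27, and the median standard error was 0.18. The deposited table holds only genes whose replicate ratios lay close together, so these p-values are too small and the counts too high. Some other fits, under the same selection, called more genes, as many as 1943 with the paired ratios. The spread of the ratios themselves differed between the stages. The log2 ratio had an SD of 0.30 over genes in ES and of 0.81 in ELA. None of the 488 genes had a ratio 2-fold away from the median gene in ES, while 170 of the 197 gaining genes and 241 of the 291 losing genes did in ELA.

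Each 2-fold gene was then sorted by its change of total RNA. Total RNA was called steady when its centred log2 change was under 0.5 in size. Loading changed at steady total RNA in 228 of the 488 genes, 99 higher and 129 lower. It amplified the change of total RNA in 90 genes, 36 that rose in both and 54 that fell in both. It opposed the change of total RNA in 170 genes, 62 with loading higher and total RNA lower, and 108 with loading lower and total RNA higher. No gene was left unassigned. Steady total RNA was the state of 1665 of all genes (52.7%), while total RNA was higher in 774 and lower in 721, where a change past the limit of 0.5 was asked for. On adjusted p alone, total RNA changed in 2179 genes (69%), higher in 1099 (34.8%) and lower in 1080 (34.2%). Among the genes with higher total RNA, 4.65% gained and 13.95% lost loading 2-fold. Among those with lower total RNA, 8.60% gained and 7.49% lost it. Among steady genes the shares were 5.95% and 7.75%.

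**Figure D1:**
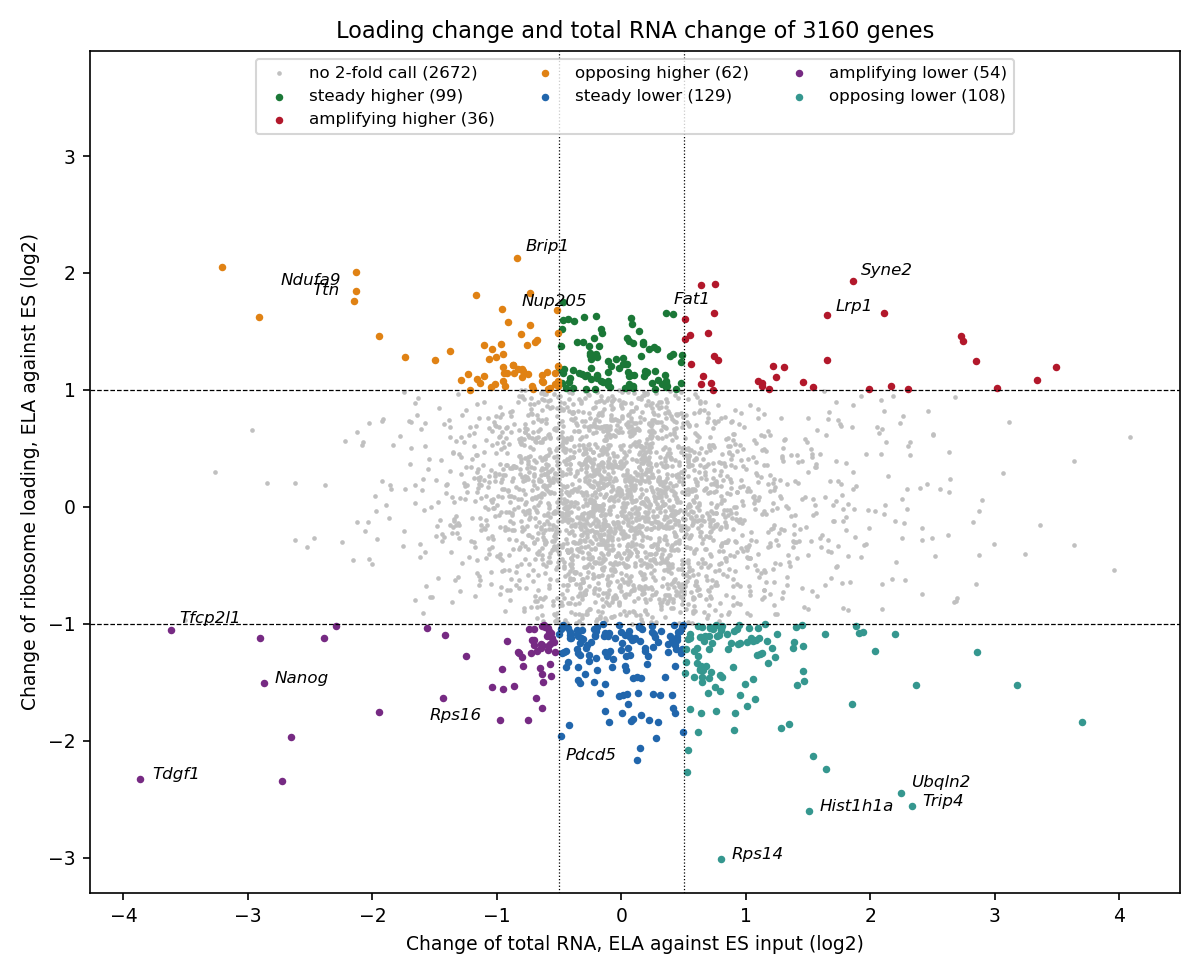
Each point is 1 of 3160 genes, with the log2 change of total RNA from ES to ELA input on the horizontal axis and the log2 change of ribosome loading on the vertical axis. Dashed lines mark a 2-fold loading change, dotted lines the limits of steady total RNA (0.5), and colours the 6 classes with their gene counts. Genes of lower loading reach -3.01 (Rps14) and genes of higher loading 2.13 (Brip1).

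Among the 99 genes that gained loading at steady total RNA, the 5 named by their size of change code for very large proteins. They were Fat1, a giant cadherin; Herc1, a ubiquitin ligase; Nup205, a scaffold protein of the nuclear pore; Prkdc, the DNA-dependent protein kinase of break repair; and Mdn1, an ATPase that releases assembly factors from the large ribosomal subunit. For Fat1, scaled counts in input were 1403 and 1409 in ES and 1804 and 1796 in ELA, and the ratios of Rpl10a-IP to input were 1.20 and 1.07 in ES and 3.47 and 3.72 in ELA. A ratio of 1 is that of the median gene. Both ELA ratios of Fat1 lay above both ES ratios, a 3.16-fold gain (loading change 1.66 ± 0.15, SE), while total RNA moved by 0.36. For Nup205 the ratios were 1.27 and 1.22 in ES and 3.50 and 4.22 in ELA, a loading change of 1.63 ± 0.16. Its total RNA moved by -0.20. For Prkdc the ratios were 1.77 and 1.38 in ES and 4.33 and 5.31 in ELA. Loading of Herc1 changed by 1.65 and that of Mdn1 by 1.61. Adjusted p of these 5 genes ran from 1.54e-12 for Fat1 to 2.62e-10 for Prkdc. Naming asked for ELA ratios wholly above the ES ratios, which 40.4% of all genes had, so their separation is a description only. Without ELA input replicate 1, total RNA of Mdn1 fell by 0.63 and it moved to the opposing class.

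The 5 named genes that lost loading at steady total RNA code for short proteins. They were Pdcd5, a short protein linked to cell death; Rps19 and Rpl36, proteins of the small and large ribosomal subunit; Snrpd2, a core Sm protein of the spliceosome; and Atp6v1g1, a subunit of the proton pump of acidic vesicles. Pdcd5 had ratios of 0.687 and 0.752 in ES and 0.148 and 0.174 in ELA, a loading change of -2.16 ± 0.18 (SE) at a total RNA change of 0.12. Rps19 had ratios of 0.533 and 0.608 in ES and 0.142 and 0.130 in ELA. Its input stayed between 688.8 and 851.5 scaled counts in the 4 libraries, so its ribosome-bound RNA fell by 1.92 with total RNA almost unmoved. Ratios of all 5 genes were already under 1 in both ES lysates. Naming asked for ELA ratios wholly below the ES ratios, which 39.6% of all genes had. Loading of Snrpd2 changed by -1.96, of Atp6v1g1 by -1.93 and of Rpl36 by -1.87. The call of Rpl36 was lost under a correction for transcript length and GC content without a replicate block, described further on. Total RNA of Snrpd2, Atp6v1g1 and Rpl36 lay near the limit of steady, at -0.49, 0.50 and -0.42. Without ELA input replicate 1, Snrpd2 and Rpl36 counted as amplifying instead.

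Where loading amplified a rise of total RNA, large surface and scaffold proteins led. Syne2 codes for a giant nesprin of the nuclear envelope, Lrp2 and Lrp1 for large endocytic receptors, Dst for a giant cytoskeletal linker and Frem2 for a basement membrane protein. Syne2 input rose from 110.9 and 117.6 scaled counts in ES to 459.5 and 378.2 in ELA, and its ratios rose from 1.07 and 0.871 to 3.49 and 3.84. Ribosome-bound RNA of Syne2 therefore rose by 3.79 on the log2 scale, of which 1.86 was total RNA and 1.93 ± 0.17 (SE) loading. For Lrp2 the ratios were 1.28 and 1.23 in ES and 4.63 and 4.80 in ELA, and total RNA rose by 0.75. For Lrp1 they were 1.02 and 0.883 in ES and 2.92 and 2.93 in ELA, with total RNA up by 1.65. Dst changed its loading by 1.90 and Frem2 by 1.65. Over the 36 genes of this class the median change of ribosome-bound RNA was 2.46. Without ELA input replicate 1, total RNA of Dst rose by 0.43 and it counted as steady.

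A fall of total RNA came with a loss of loading in 54 genes. Tdgf1, the Nodal co-receptor Cripto, had the largest loss among those with at least 20 reads in each library. It had 2127 and 2219 scaled counts in ES input and 148.7 and 146.9 in ELA input, a 14.6-fold fall. Its ratios were 1.11 and 1.08 in ES and 0.209 and 0.230 in ELA, a further 5.02-fold loss. Ribosome-bound RNA of Tdgf1 fell by 6.20 on the log2 scale. The other 4 named genes of this class were Rps16 and Rps27a, proteins of the small subunit; Eef1e1, an auxiliary factor of the tRNA synthetase complex; and Hspe1, the mitochondrial chaperonin cofactor. Rps16 had ratios of 0.620 and 0.538 in ES and 0.176 and 0.150 in ELA. Loading of Eef1e1 changed by -1.72, of Hspe1 by -1.64 and of Rps27a by -1.45, and total RNA by -0.64, -0.69 and -0.57. All 5 kept their class without ELA input replicate 1. Hspb1, a small heat shock protein, had a loading change of -2.35 on as few as 4 reads in a library.

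Loading opposed a fall of total RNA in 62 genes, and in 41 of them ribosome-bound RNA moved by less than 0.5. Another 19 had more ribosome-bound RNA in ELA from less total RNA. The change of ribosome-bound RNA is the sum of the changes of loading and total RNA. Small values of it therefore follow in part from how the opposing classes are defined. Named were Ttn, the giant muscle protein titin; Uggt1, which tests the folding of glycoproteins; Eftud2, a GTPase of the U5 snRNP; Vps13d, a lipid transfer protein; and Ticrr, which starts DNA replication. Ttn input fell from 708.5 and 683 scaled counts in ES to 182.5 and 133.3 in ELA, while its ratios rose from 0.612 and 0.615 to 1.83 and 2.37. Ribosome-bound RNA of Ttn ended 0.39 lower, while total RNA fell by 2.15. For Eftud2 the ratios were 0.961 and 0.987 in ES and 2.96 and 2.51 in ELA, and ribosome-bound RNA rose by 0.68 although total RNA fell by 0.80. For Uggt1 the ratios were 1.37 and 1.34 in ES and 3.64 and 3.97 in ELA. Loading rose by 1.43 in Vps13d and by 1.39 in Ticrr. The largest gain of any gene was that of Brip1, a helicase of the Fanconi pathway, with ratios of 1.09 and 1.06 in ES and 5.24 and 4.36 in ELA. That value rests on as few as 4 reads in ELA input. Over the 30 genes named by size of change, 5 in each class, the adjusted p reached at most 2.27e-09 (Ticrr; limma).

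Loading opposed a rise of total RNA in 108 genes, and in 54 of them ribosome-bound RNA moved by less than 0.5. In 44 it fell although total RNA rose. These counts, too, follow in part from the definition of the class. Rps14, a small subunit protein, had the largest loss of any gene. Its input rose from 729.7 and 606.4 scaled counts to 1426 and 944.0, and its ratios fell from 0.507 and 0.662 to 0.0786 and 0.0655, an 8.07-fold loss. Hist1h1a, a linker histone, had ratios of 0.633 and 0.705 in ES and 0.106 and 0.114 in ELA. Trip4, a transcription coactivator, rose from 118.6 and 122 to 675.8 and 552.3 scaled counts in input, and its ratios fell from 0.782 and 0.786 to 0.120 and 0.146. Ribosome-bound RNA of Trip4 changed by -0.22 over a 5.05-fold rise of total RNA. Ubqln2, which shuttles ubiquitinated proteins to the proteasome, had a total RNA change of 2.24, a loading change of -2.45 ± 0.19 (SE) and a bound change of -0.20. Sfr1, a recombination accessory factor, changed its loading by -2.27. Without ELA input replicate 1 total RNA of Rps14 and Sfr1 rose by 0.48 and 0.43, and both counted as steady. Rps14 belongs to a family with many processed copies, and its reads may be split among them.

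**Figure D2:**
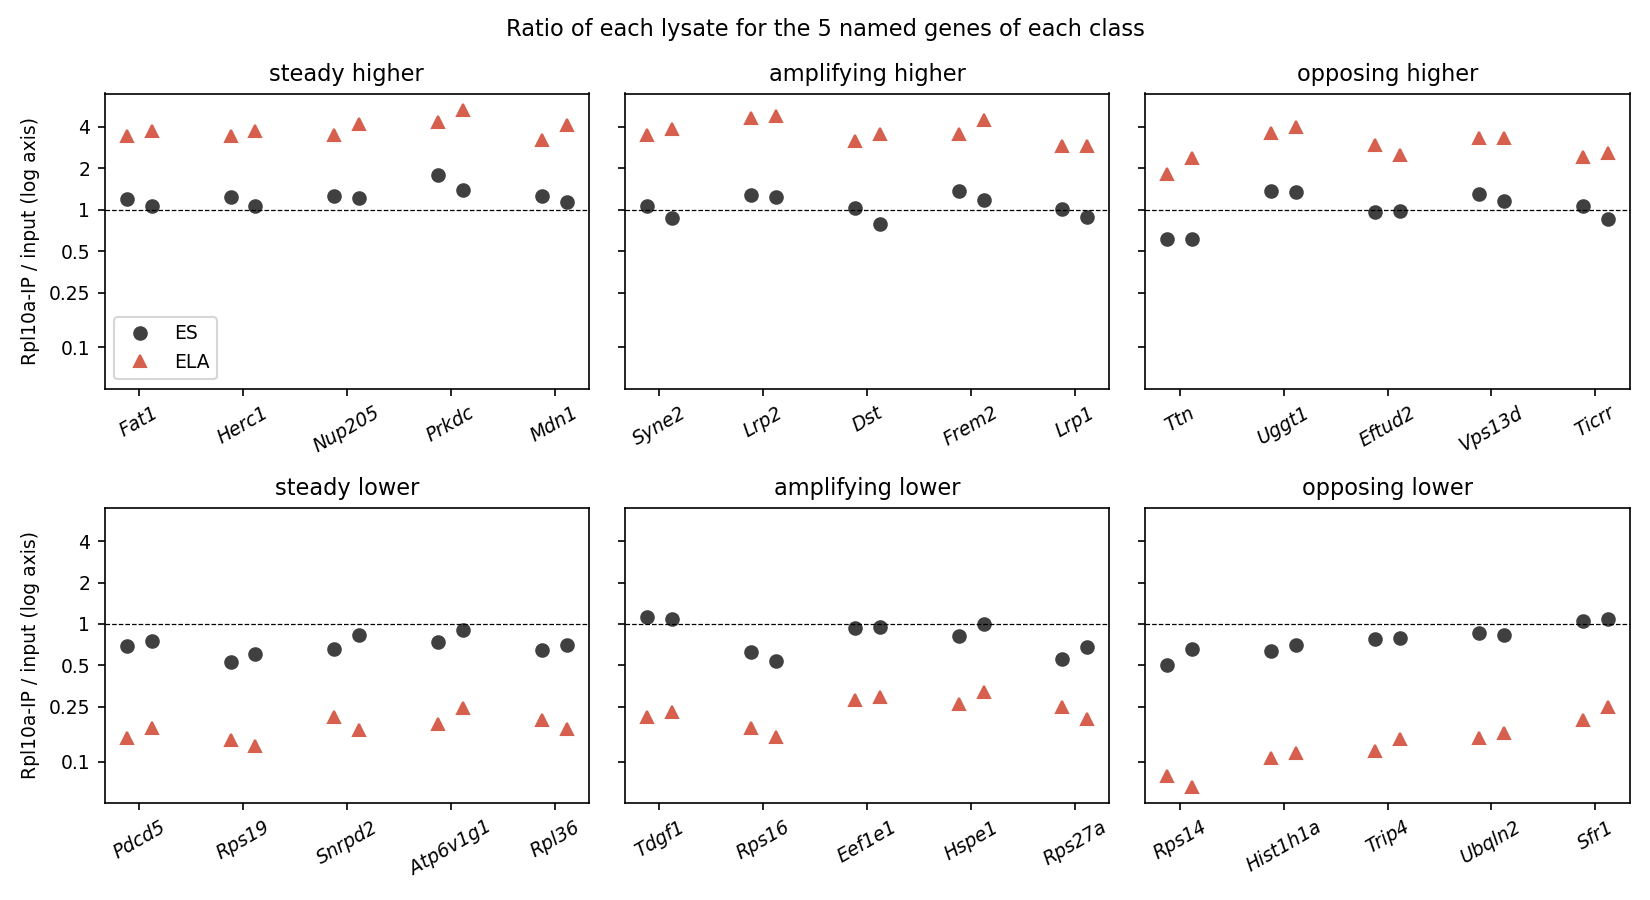
Ratio of Rpl10a-IP to input on a log axis for the 5 named genes of each class, with circles for the 2 ES lysates and triangles for the 2 ELA lysates. The dashed line is the ratio of the median gene. ES ratios sit between 0.507 and 1.77, while ELA ratios reach 5.31 for Prkdc and 0.0655 for Rps14.

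Input enters the total RNA change and the loading change with opposite signs, so an error in input alone moves a gene towards the opposing classes. The sorting was therefore repeated with total RNA from one replicate and loading from the other, so that no input library was shared, on log2 limits alone. The table holds only genes whose replicate ratios lay close together, so loading in one replicate was selected to match that in the other. The crossed pairs therefore reduce the shared error only in part. An error common to both ELA inputs would remain in them. With total RNA from replicate 1 and loading from replicate 2, 62 genes opposed with loading higher and 101 with loading lower. With the replicates exchanged there were 65 and 95. When both changes came from replicate 1 the counts were 75 and 120, and from replicate 2 they were 72 and 95. Amplifying genes numbered 47 higher and 75 lower in the first crossed pair and 38 and 48 in the second. In both crossed pairs, genes with higher total RNA lost loading 2-fold more often than they gained it, in 12.3% against 5.72% and in 12.3% against 4.92%. Genes with lower total RNA did not keep one order. They lost loading in 9.79% and gained it in 8.09% in the first crossed pair, and lost it in 6.99% and gained it in 9.46% in the second. Steady genes lost it more often in both, in 8.65% against 7.44% and in 7.82% against 5.53%.

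With ELA input replicate 2 alone, 1882 genes passed the test, 207 gained and 287 lost loading 2-fold. All 488 genes called 2-fold on 8 libraries kept their direction, and 417 were still 2-fold. The table holds only genes whose replicate ratios lay close together, and all remaining libraries are shared with the main fit. A change of direction was therefore hardly possible, and this check cannot show that the calls would hold in other libraries. Class membership held less well, since it has a second limit to pass. It held for 77 of 99 and 104 of 129 genes at steady total RNA, for 26 of 36 and 38 of 54 amplifying genes, and for 54 of 62 and 85 of 108 opposing genes, each pair with the higher loading first. Of the list members named further on, Tfcp2l1, Eif3e, Rictor, Nup93 and Atp5g1 fell under 2-fold without ELA input replicate 1, and Eif1a, Eif2ak3, Mycbp2, Rpl35 and Rpl24 moved to another class.

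**Figure D3:**
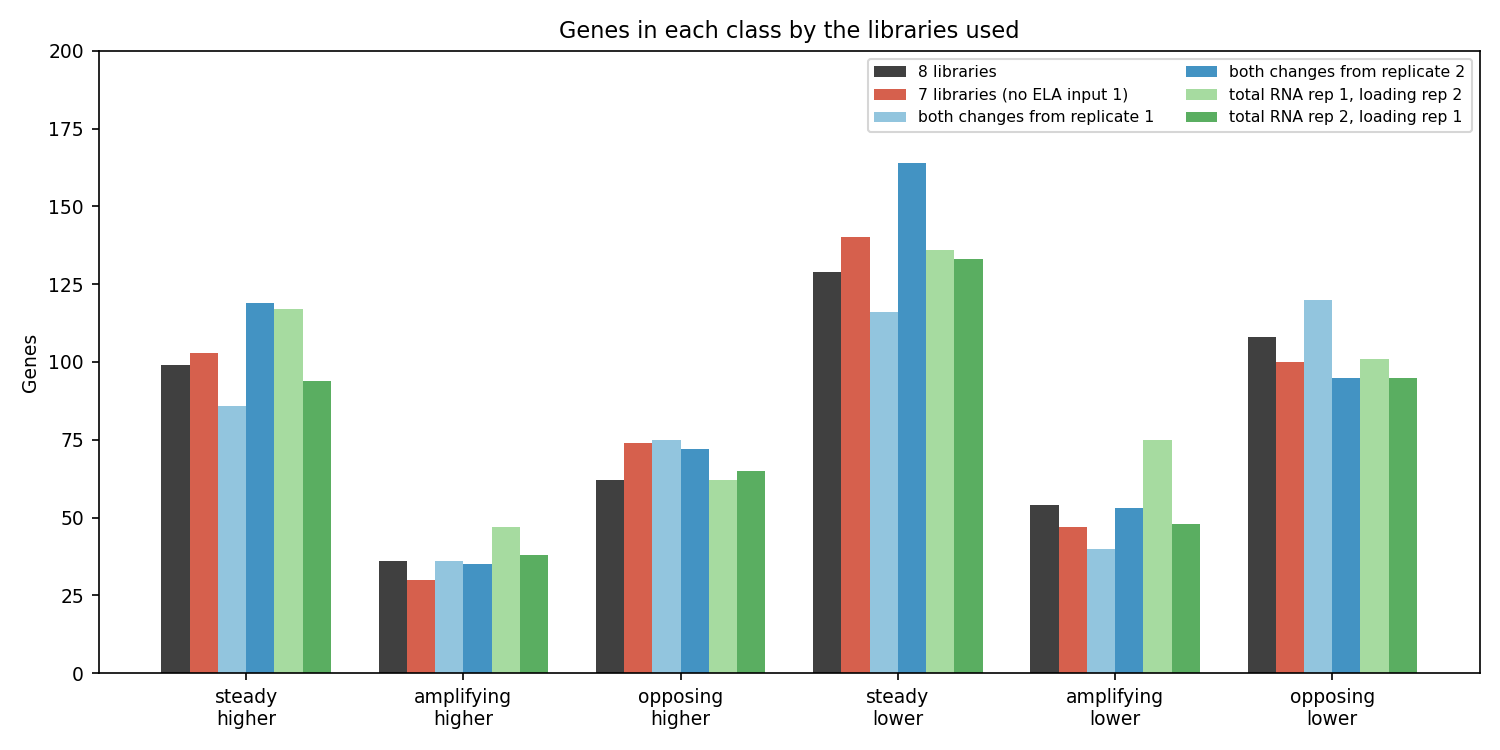
Number of genes in each of the 6 classes, by the libraries used: all 8, the 7 without ELA input replicate 1, both changes from a single replicate, and the 2 crossed pairs that share no input library. Only the first 2 bars of each set use a test, and the rest use log2 limits alone. Opposing genes with lower loading stay between 95 and 120 throughout.

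What the gaining and losing genes shared most visibly was the length of their coding sequence, which the sorting did not use. Lengths were taken for 3119 genes from the GENCODE M1 transcript with the longest coding sequence. The median was 4428 bases in the genes that gained loading 2-fold, 696 in those that lost it and 1668 over all genes. The steady and amplifying gaining classes had medians of 5523 and 6467 bases, and the opposing one 2849. The losing classes had medians of 675 (steady), 531 (amplifying) and 774 (opposing). Across genes, log2 coding length and loading change had a Pearson r of 0.65 and a Spearman rho of 0.65 (n = 3119 genes, which share the 8 libraries and are not independent). For 3′ UTR length r was 0.04 over 3049 genes, for 5′ UTR length 0.02 over 3009 and for GC content 0.12.

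The relation to length was mainly one of the ELA ratios. From the shortest to the longest quintile of coding length the median loading change was -0.71, -0.21, -0.01, 0.22 and 0.65. Median ES log2 ratios ran only from -0.14 to 0.09 over these quintiles, and ELA ratios from -0.81 to 0.73. Total RNA ran from -0.21 to 0.24. Of genes up to 918 bases, 192 of 633 lost and 0 gained loading 2-fold, and of genes from 3165 bases on, 140 of 623 gained and 5 lost it. Input depth differed with stage in the same comparison, and its part in the relation was not tested.

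**Figure D4:**
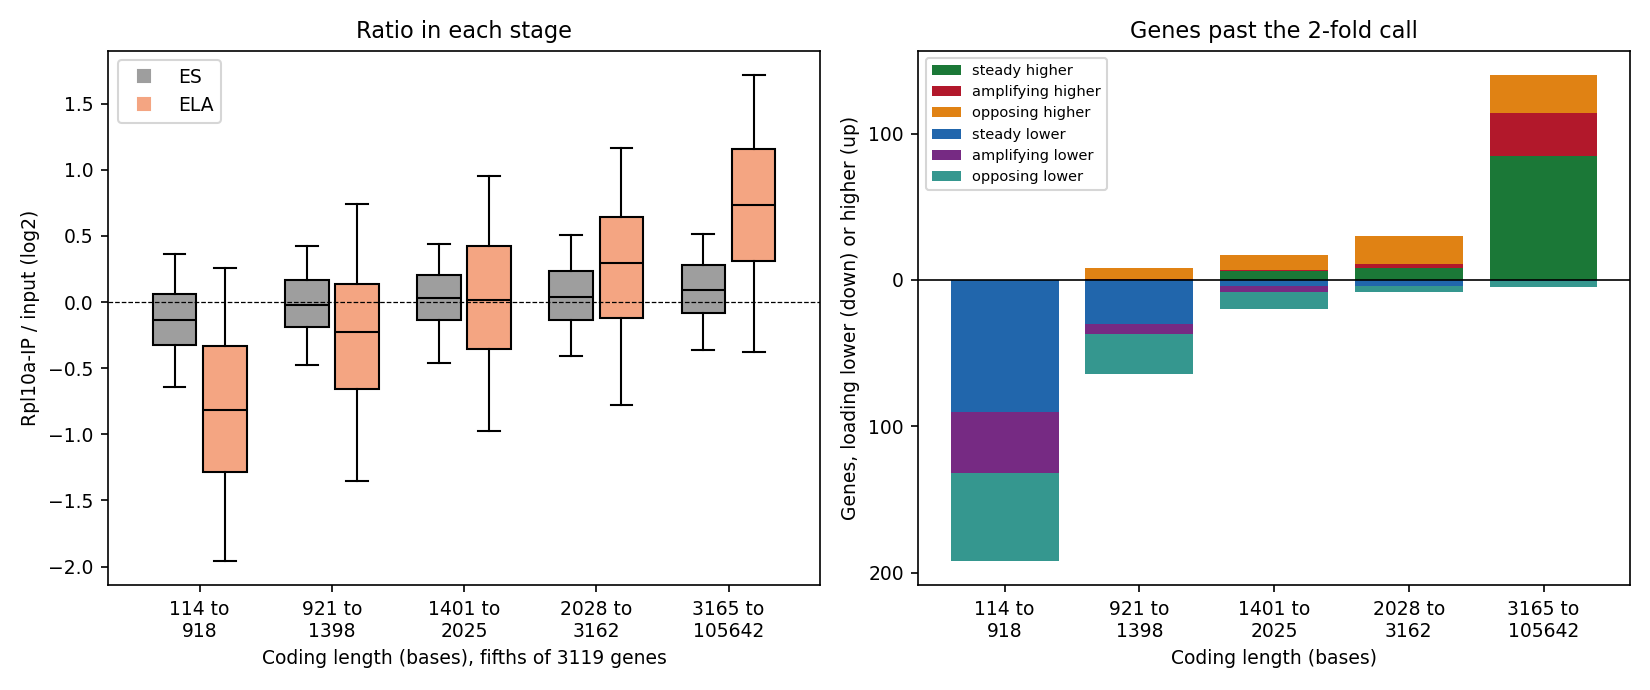
Left, ribosome-bound over total RNA in ES and ELA, as log2, for 5 equal groups of genes by coding length, with boxes for the middle 50% of genes, lines for medians and whiskers from the 5th to the 95th percentile. Right, the number of genes in each group that gained (up) or lost (down) loading 2-fold, coloured by class. ELA medians climb from -0.81 to 0.73 and ES medians from -0.14 to 0.09.

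A correction of each library for coding length and GC content, chosen after the relation had been seen, called 1261 of 3119 genes (40.4%), 594 higher (19%) and 667 lower (21.4%). Of these 62 were 2-fold higher (1.99%) and 103 lower (3.3%). They were in part other genes. Of 1728 genes called before and with a length, 916 were still called in the same direction and 203 changed sign, and of 484 called 2-fold before, 110 were still 2-fold and 98 kept their class. Genes at steady total RNA then numbered 14 higher and 32 lower, amplifying genes 6 and 12, and opposing genes 42 and 59. Trip4 and Ubqln2 stood at -2.53 and -2.62, against -2.56 and -2.45 before, and Hist1h1a at -2.13 against -2.60. Tdgf1 shrank from -2.33 to -1.58. The leaders among the gaining genes shrank, Fat1 from 1.66 to 0.39, Syne2 from 1.93 to 0.46 and Dst from 1.90 to 0.40. Ttn, whose model is the longest of all, turned from 1.76 to -0.26. Eftud2 and Uggt1, with 2919 and 4656 coding bases, stood at 1.05 and 0.79. Calls of Mdn1, Vps13d, Brca2, Atm, Mtor, Rictor, Dync1h1, Fras1, Eif1a, Eif1ax and Atp5g1 were lost under it, and Huwe1 turned to -0.05.

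Only 5 genes in the longest quintile lost loading 2-fold, and they are named for that after their values were seen. Nrxn2, Ncam1 and Map2 code for neuronal adhesion and cytoskeletal proteins, Usp8 for a deubiquitinase and Naca for a chaperone at the ribosome exit. Ncam1 rose from 73.57 and 77.44 scaled counts in ES input to 175.7 and 182.3 in ELA, and its ratios fell from 1.05 and 0.959 to 0.400 and 0.420. Map2 had ratios of 1.03 and 0.863 in ES and 0.385 and 0.410 in ELA with total RNA up by 2.04. Loading of Nrxn2 changed by -1.52 ± 0.28 (SE), on as few as 11 reads, and that of Usp8 by -1.04. Total RNA of these 4 genes rose by between 1.09 and 3.18. That of the neural marker Nes rose too, by 2.52, and its part in these values was not tested. Naca changed by -1.83 at a total RNA change of 0.08, but its long model is that of a muscle isoform.

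Of 41 cytosolic ribosomal protein genes, 36 were called lower, 0 higher and 5 were not called, with a median change of -1.12 where the median of all genes is 0. Over all genes 27.4% were lower and 9.21% lower by 2-fold. The loss was 2-fold in 23, 13 of them at steady total RNA, 9 amplifying and 1 opposing. Rps15 and Rps24 followed Rps14, Rps19, Rpl36 and Rps16 at -1.81 and -1.76. Rpl10a, the protein the antibody binds, was at 0.05 with an adjusted p of 0.82 (limma), with ratios of 1.20 and 1.12 in ES and 1.30 and 1.11 in ELA. It was called higher once libraries were corrected for length, at 0.54 with coding length and GC content (adjusted p 0.0046, limma) and at 0.79 with transcript length and GC content (adjusted p 4.13e-05). The coding sequences of this family are short, with a median of 456 bases. Among the genes up to 918 bases the 39 ribosomal protein genes had a median of -1.12 and the others one of -0.68. After the correction for coding length and GC content the median was -0.42, with 25 genes lower and 1 higher, where 21.4% and 19% of all genes were. These genes have near-identical copies in the genome, and single values are uncertain.

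Ribosomal protein mRNAs are known for a terminal oligopyrimidine stretch at their start, through which growth signals set their loading. Start sequences from RefSeq (GRCm38.p6) are shown for 3 members where a C followed by at least 4 pyrimidines began within 5 bases of the annotated start (capitals), and for 3 without such a stretch. Each window spans 30 bases around the start, on the strand of the gene, and that of Rps24 is one of 2 annotated starts.
Rps24, chr14:24490663-24490692, plus strand: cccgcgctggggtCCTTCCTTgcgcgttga
Rpl35, chr2:39005117-39005146, minus strand: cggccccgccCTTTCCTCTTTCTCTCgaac
Rps23, chr13:90923107-90923136, plus strand: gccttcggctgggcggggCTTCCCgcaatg
Rps16, chr7:28350674-28350703, plus strand: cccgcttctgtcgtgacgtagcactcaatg
Rpl23, chr11:97782425-97782454, minus strand: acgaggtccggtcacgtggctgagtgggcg
Rpl24, chr16:55966260-55966289, plus strand: agaaagctgttgctaggaaacagactgggc
Loading changed by -1.76 in Rps24, -1.25 in Rpl35 and -1.21 in Rps23, and by -1.83 in Rps16, -1.52 in Rpl23 and -1.50 in Rpl24. The call of Rps23 was lost under the correction for transcript length and GC content, at -0.12 (adjusted p 0.58, limma). Over the 31 members with an annotated start, 10 had the stretch (32.3%), with a median loading change of -0.97, and 21 did not, with -1.12. The stretch was found in 22.9% of the 2547 analysed genes with a start and in 18.3% of all annotated starts. Annotated starts can lie away from the true cap site.

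Other parts of the gene expression machinery moved in both directions. Of 48 splicing factor and hnRNP genes, 31 were called lower and 4 higher (27.4% and 27.7% of all genes), with a median of -0.55, and 14 lost loading 2-fold. Hnrnpa3 and Hnrnpa0, packaging proteins of nascent RNA, lost loading while their total RNA rose, by -2.25 and -1.69 against 1.65 and 1.85. Srsf1 and Srsf9, splicing activators, changed by -1.21 and -1.36. The large U5 and U2 proteins Prpf8 and Sf3b3 gained, by 1.52 and 1.28, at steady total RNA. Within this list coding length and loading change had a Pearson r of 0.76 over 48 genes. Over 48 genes the median after correction for coding length and GC content was -0.29, with 17 lower, 3 higher and 4 genes 2-fold lower (21.4%, 19% and 3.3% of all genes). Of 31 translation initiation and elongation factors 9 were lower and 5 higher, where 27.4% and 27.7% of all genes were. Eif1a, Eif1ax and Eif3e changed by -1.19, -1.10 and -1.05, and the call of Eif3e was lost under the correction for transcript length and GC content (-0.18). Of 14 translation control genes 6 were higher and 2 lower, with a median of 0.28, and 3 and 3 after correction for coding length and GC content, with 0.10. Mtor and Eif2ak3, kinases that set the rate of translation, gained 1.13 and 1.06, Eif2ak3 on as few as 12 reads. Rictor, a partner of Mtor, and Gcn1l1, an activator of a further such kinase, gained 1.01 and 1.03, all 4 at steady total RNA. Rheb, the small GTPase that switches Mtor on, changed by -1.36 on as few as 19 reads. The ribosome biogenesis list was filled by name stems and takes in WD-repeat genes of other roles, such as Wdr5 and Wdr26. Of its 41 genes 16 were higher and 7 lower, and the processome protein Utp20 had 1.49.

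All 7 analysed histone genes were called lower, 6 of them 2-fold, with a median of -1.46, beside 27.4% and 9.21% of all genes. H3f3a and H3f3b, both coding for histone H3.3, changed by -1.82 and -1.46, and total RNA moved by 0.22 and 0.81. H1f0, a linker histone of cells leaving the cycle, changed by -1.24 over a total RNA rise of 2.86. Hist1h2af, on as few as 11 reads, and the centromere histone Cenpa changed by -1.60 and -1.21. In the 6 members with a length, the median was -0.52 after correction for coding length and GC content, with 5 lower and 1 of them 2-fold (21.4% and 3.3% of all genes), and -0.94 after correction for transcript length and GC content. Under the latter the call of Hist1h2af was lost, at -0.05 (adjusted p 0.86, limma). Histone genes are close copies of each other, and single values are uncertain.

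Of 18 genes of homologous recombination and damage signalling, 12 were higher and 1 lower, with a median of 0.65 and 6 gaining 2-fold. Over all genes 27.7% were higher, 27.4% lower and 6.23% higher by 2-fold. Atm, the break-sensing kinase, and Brca2, which loads the recombinase, gained 1.29 and 1.15 beside Prkdc, at steady total RNA. Fanci and Xrcc6 gained 1.20 and 1.09 while their total RNA fell by 0.95 and 1.29, on as few as 16 and 13 reads. Of 6 mismatch repair genes 5 were higher, with a median of 0.70. Of 26 DNA replication genes 13 were higher and 4 lower. The polymerase Pole gained 1.27 and the helicase subunits Mcm6 and Mcm4 gained 1.16 and 1.08, the latter 2 against falling total RNA, while the small fork proteins Tipin and Gins2 changed by -1.43 and -1.17, Gins2 on as few as 10 reads. Of 16 nuclear pore genes 9 were higher and 2 lower, with Nup98 and Nup107 at 1.19 and 1.13, and Nup93 and Aaas at 1.01 and 1.18, Aaas on as few as 6 reads. After correction for coding length and GC content, the recombination median was 0.21 with 5 higher and 2 lower, that of mismatch repair 0.39 with 3 and 1, that of replication 0.35 with 12 and 3, and that of the nuclear pore, 0.74 before, was 0.28 with 8 and 3, beside 19% higher and 21.4% lower over all genes.

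Chromatin regulators were the group the study turned to, and their lists were chosen on results of this kind, so they are no independent evidence. Of 14 lysine demethylase genes listed, 7 were analysed, and all 7 were called higher, none 2-fold. Over all genes 27.7% were higher and 27.4% lower. The demethylase median was 0.82, from 0.41 for Kdm2a to 0.98 for Kdm4a. Of the demethylase, remodeller and methyltransferase proteins that the study found raised in ELA, Chd4 and Dnmt3b had an analysed gene. Kdm2b, Kdm5b, Smarca4, Smarcd1 and Dnmt1 did not. Without ELA input replicate 1 Kdm4a was at 1.12, past 2-fold. The call of Kdm2a was lost without ELA input replicate 1 (0.32), ELA Rpl10a-IP replicate 1 (0.44) or 2 (0.38), ES input replicate 2 (0.32), or ES Rpl10a-IP replicate 1 (0.37) or 2 (0.44), and also with total reads as the scaling (0.32, adjusted p 0.077, limma) and in the upper 75% of genes by mean level (0.34, adjusted p 0.0721). Of 34 SWI/SNF and related remodellers listed, 19 were analysed, of which 11 were higher and 1 lower, with a median of 0.50. Ep400, Ttf2 and Shprh gained 1.37, 1.09 and 1.06 at steady total RNA, and the small subunit Smarce1 changed by -1.17. After correction for coding length and GC content the median was 0.21 in the demethylases, with 3 of 7 called higher, and -0.14 in the remodellers, with 3 higher and 4 lower, beside 19% and 21.4% of all genes. Kdm2a turned to -0.14. Of 13 histone acetyltransferase genes 5 were higher and 1 lower, with a median of 0.22, and of 11 Polycomb genes 2 were higher and 4 lower, 2 of them 2-fold, with -0.05. After the same correction these medians were -0.37 and -0.33. Of the DNA methyltransferases 2 were analysed and 1 was higher, with a median of 0.34, and of the histone deacetylases 2 were analysed and 1 was lower. Under the correction for coding length and GC content 0 methyltransferases were called (median -0.05), and 1 deacetylase was lower. Under that for transcript length and GC content 0 of either were called (methyltransferase median -0.09).

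Of 42 kinesin, dynein and centrosome genes 24 were higher and 3 lower, where 27.7% and 27.4% of all genes were. The dynein heavy chain Dync1h1 gained 1.41, and the kinesin Kif3a changed by -1.52 over a total RNA rise of 2.36. Of 19 adhesion and matrix genes 10 were higher and 0 lower. Fat1, Lrp2, Frem2 and Fras1, the last with 1.66 on as few as 12 reads, gained 2-fold. Of 60 ubiquitin ligases and deubiquitinases 29 were higher and 10 lower. The giant ligases Herc1, Mycbp2 and Huwe1 gained 1.65, 1.60 and 1.16. The medians of the motor, adhesion and ubiquitin lists were 0.51, 0.67 and 0.35, and after correction for coding length and GC content 0.00, 0.13 and 0.08, with 8, 4 and 11 genes higher and 8, 3 and 12 lower. Under that correction 19% of all genes were higher and 21.4% lower. Among the largest gains were also Vps16, a vesicle tethering protein, with 1.75 on as few as 10 reads, and the metabolic enzymes Cad and Acaca, with 1.56 and 1.44. Their values, too, were picked after they were seen.

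Of 34 naive and core pluripotency genes listed, 14 were analysed, of which 7 were called lower and 0 higher, with a median of -0.40. Loading fell 2-fold in 4 of them. Over all genes 27.4% were lower and 9.21% lower by 2-fold. The 5 analysed markers of the naive state had a median of -1.05, and 3 were lower by 2-fold. The 4 analysed markers of core pluripotency had a median of -0.34, and 0 were lower by 2-fold. The 4 list members lower by 2-fold, Tdgf1, Dppa2, Nanog and Tfcp2l1, all fell in total RNA as well. Nanog, the homeodomain factor that guards the naive state, had 511.5 and 511.8 scaled counts in ES input and 67.6 and 70.7 in ELA input, and its ratios were 1.14 and 1.28 in ES and 0.439 and 0.423 in ELA. Its loading changed by -1.51 ± 0.17 (SE) on as few as 10 reads. Dppa2 changed by -1.76 and Tfcp2l1 by -1.05, on as few as 15 and 17 reads. After correction for coding length and GC content the median was -0.43 with 7 lower and 1 higher (21.4% and 19% of all genes), and Nanog and Dppa2 stood at -1.10 and -1.28. Nanog has several processed copies in the genome.

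Of 27 respiratory chain genes 9 were lower and 6 higher, beside 27.4% and 27.7% of all genes, with a median of -0.29. Ndufc1 and Ndufa7, small accessory subunits of complex I, changed by -1.97 and -1.78 at steady total RNA, on as few as 14 and 12 reads. Ndufa9, another subunit of that complex, had ratios of 1.08 and 1.17 in ES and 4.26 and 3.98 in ELA, a gain of 1.85 on as few as 6 reads, while total RNA fell by 2.14. Atp5g1 changed by -1.56 ± 0.32 (SE) on as few as 6 reads, and by -0.91 without ELA input replicate 1. Of 11 mitochondrial ribosomal protein genes 6 were lower and 2 higher, with a median of -0.50. After correction for coding length and GC content the medians of these lists were 0.38 and 0.12. In the other 16 lists the medians lay between -0.26 and 0.42.

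**Figure D5:**
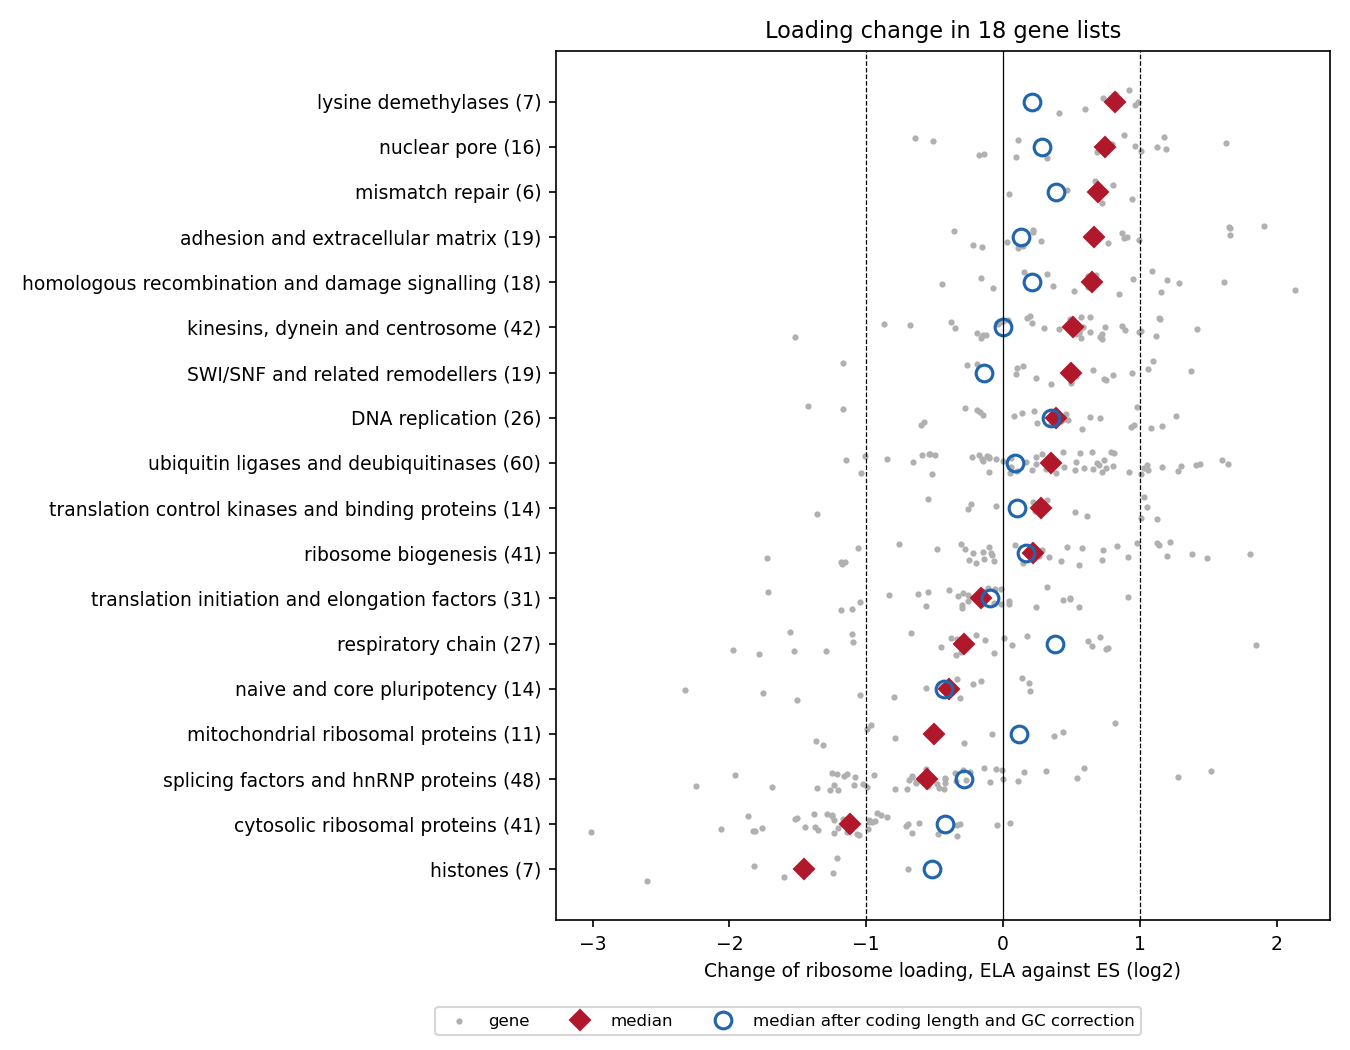
Log2 change of ribosome loading in 18 gene lists, with the number of genes analysed in parentheses. Grey points are genes, diamonds list medians and open circles the medians after each library was corrected for coding length and GC content; dashed lines mark a 2-fold change. The medians of histones and cytosolic ribosomal proteins are -1.46 and -1.12, and that of the naive and core pluripotency list changes least among lists of losing genes, from -0.40 to -0.43.

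The study also followed microRNAs as candidates for holding chromatin regulators back, so the 3′ UTRs were searched for seed matches. MicroRNAs guide Argonaute to sites that pair with their bases 2 to 8, the seed (capitals). An abundant family of mouse ES cells is encoded in one cluster, and 3 of its members share a seed. By the study's account, members of this cluster fell from ES to ELA while members of another cluster rose. Seeds of that other cluster, miR-302, were not compared here. A match to the seed below can therefore not be assigned to the ES cluster alone. Whether the fall of the ES cluster changed loading was not tested. Sequences are from RefSeq (GRCm38.p6).
mmu-miR-291a-3p, chr7:3218968-3218989, plus strand: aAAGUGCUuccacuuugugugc
mmu-miR-294-3p, chr7:3220691-3220712, plus strand: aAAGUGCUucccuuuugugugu
mmu-miR-295-3p, chr7:3220815-3220837, plus strand: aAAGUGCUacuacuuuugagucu
The complement of this seed, AGCACTT, stood in the 3′ UTR of 493 of 3049 genes (16.2%). Their median loading change was 0.01, against -0.01 in the 2556 genes without it, and 5.88% against 6.22% gained loading 2-fold while 5.68% against 9.94% lost it. By class the site was found in 12.5% of steady, 16.7% of amplifying and 19.4% of opposing genes with higher loading, and in 7.87%, 9.62% and 12.6% of those with lower loading. A longer UTR holds a given site more often, and its median length was 789 bases in gaining and 849 in losing genes, against 1173 over all. Further seeds that the study took up, of miR-295-5p, miR-27b-5p, miR-181c-5p and miR-425-5p, gave medians between -0.04 and 0.08 for genes with the site. The seed of miR-150-5p was not analysed here.

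RefSeq lists 12 analysed genes as long non-coding RNA, of which 3 were called higher and 2 lower, where 27.7% and 27.4% of all genes were. Rian, an imprinted RNA that hosts small nucleolar RNAs, rose from 816 and 809 scaled counts in ES input to 1818 and 2035 in ELA, and its ratios from 0.784 and 0.679 to 1.63 and 1.53. Mir17hg, the host transcript of a microRNA cluster, had ratios of 0.921 and 0.897 in ES and 1.98 and 1.94 in ELA, on as few as 8 reads. Both gains exceeded 2-fold, at 1.11 and 1.12. These RNAs are listed as non-coding, yet their ELA ratios lay above the median gene. Whether ribosomes held them was not tested. Gm2373 changed by -1.43. In the 12 genes the median ratio was 0.764 and 0.712 in ES and 0.808 and 0.727 in ELA, below the median gene in each lysate.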

How the data were processed

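RNA of 8 libraries was measured by sequencing after ribosomal RNA depletion. Per the methods and labels, the authors mapped reads with TopHat2 to the mm10 mouse transcriptome, counted them per gene with HTSeq and divided the counts by DESeq2 size factors, with versions not stated. The deposited per-library signal is this normalised count, in 3160 genes. The methods describe a filter on level and one on the SD of the counts. In the table the SD over mean of the replicate ratios stays under 0.2 in both stages, while that of the input values reaches 0.363 in ES and 0.602 in ELA. The strand used in counting is not given in the sources used here, so antisense overlaps are uncertain. Deposited columns that hold the authors' ratio of Rpl10a-IP to input and the log2 of its change between stages were not used. The table held 0 columns of other samples. Of its gene names, 7 read as dates and were not resolved.

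Dividing a library's values by its smallest step gave whole reads, within 0.01 of a read, for 100% of values, and so the depths. Tests were held to the deposited unit. Log2(value + 1) was fitted with limma 3.58.1 in R 4.3.3 (lmFit, eBayes with trend), 1 coefficient per group and 1 constant per group, so that the median gene had no change of total RNA or loading. Scaled counts are deposited values times that constant. Changes of low genes are understated on this scale. Loading change was the stage-by-fraction term, with Benjamini-Hochberg adjustment and a threshold of 0.05. A 2-fold call also needed a log2 change of 1. The methods describe duplicate experiments without saying whether the cultures were separate, so p-values measure the spread between these libraries. The prior degrees of freedom were 45.2 beside 4 residual ones, so the smallest p-values lean on the spread of other genes. The fit was tested on simulated data.

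Input was taken from the same lysate as the Rpl10a-IP of the same number, which pairs them within a stage. Deviations from group means of same-numbered input and Rpl10a-IP libraries correlated with r of 0.17 in ES and 0.50 in ELA, and the other pairings of groups gave -0.02 to 0.17. Genes were named by rule: in each class the 5 largest changes with ratios that do not overlap between stages and at least 20 reads in each library, and members of 34 gene lists that pass the 2-fold call or end their list, of which the text names only some. Members, lists and rule were chosen with earlier results of these data known. Lists are described by counts and medians of the members found in the table, with no set test. Of 82 cytosolic ribosomal protein genes listed, for instance, 41 were analysed. Gene symbols matched RefSeq (GRCm38.p6) for 3021 genes by symbol and 128 by synonym. Lengths and composition came from GENCODE M1 transcripts, matched by name for 3119 genes, with no coordinates taken from that build. Corrections for length and GC content used loess with a span of 0.5 in each library. Alternatives covered scaling, pseudocount, filters on low genes, precision weights, replicate blocks, the limits of the classes and leaving out each library.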

Additional observations from a re-analysis of the deposited data

Results flagged for a closer look

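No group held enough libraries for a test of outlying samples. By the test of the stage-by-fraction term, the ratio of Rpl10a-IP to input differed between ES and ELA in 1743 genes, in 488 of them by at least 2-fold. In 467 genes called by this test both ratios lay on one side of the median gene in ES and on the other side in ELA. The gene with the largest gain was Brip1, at 2.13, and the gene with the largest loss Rps14, at -3.01. The first rests on as few as 4 reads in a library, and the second has near-identical copies in the genome.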

How the results depend on the processing

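The count of genes with changed loading, its directions and the 2-fold counts stayed within 1.5 times under scaling by TMM (1775 called), total reads (1728) or the deposited size factors (1734), a pseudocount of 0.1 (1730), log2 CPM with a prior count of 2 (1772), precision weights (1800) and both filters on low genes. With the deposited size factors the median gene's total RNA change was -0.12, so changes are relative to that gene. Total reads moved the split from 876 higher and 867 lower to 743 and 985. Blocking on the replicate number called 1875 genes and comparing the 4 paired ratios 1943, and the pairing changed no 2-fold count, class or other call of a named gene. Leaving out 1 library gave 1402 to 1883 calls, 684 to 956 higher, 718 to 960 lower, 185 to 210 2-fold higher and 281 to 302 2-fold lower. The classes are less stable. With only genes in the upper 75% by mean level, amplifying higher, opposing higher and opposing lower held 23, 31 and 68 genes, and with at least 50 ELA input reads the first of these held 22 and the second 32, fewer genes being tested. Under these filters the median of mitochondrial ribosomal proteins was -0.026 and -0.87, that of the respiratory chain -0.096 and -0.0072, and that of adhesion genes 0.60 and 0.30. A steady limit of 0.25 gave 55 steady higher, 65 steady lower, 55 amplifying higher and 86 amplifying lower. A limit of 1 gave 153, 232, 22 and 14, with 22 opposing higher and 45 lower. Without a fold limit the steady, amplifying and opposing classes held 464, 175 and 237 higher and 468, 146 and 253 lower, and at 1.5-fold 338, 112 and 178 higher and 335, 111 and 206 lower.

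Correction for transcript length and GC content, with or without the replicate block (1696 and 1554 calls), gave 108 genes 2-fold higher and 142 lower, with 43 steady higher, 46 steady lower, 6 amplifying higher and 21 amplifying lower. Correction for coding length and GC content, added after the data were seen, gave 62 and 103, with 14, 32, 6 and 12 in these classes and 59 opposing lower. Of the 484 genes called 2-fold before, 181 and 110 were still 2-fold and 151 and 98 kept their class under the first and second correction. Under these corrections respectively, the respiratory chain median turned to 0.176 and 0.379, that of mitochondrial ribosomal proteins to 0.105 and 0.119, and Kdm2a to -0.0487 and -0.139. Only the second turned the remodellers (-0.142), Ttn (-0.264) and Huwe1 (-0.0510). Rpl10a, not called, changed sign with total reads (-0.0357), the filter on mean level (-0.0178) and without ELA input replicate 2 (-0.0302), ELA Rpl10a-IP replicate 1 (-0.146), ES input replicate 1 (-0.0245) or ES Rpl10a-IP replicate 2 (-0.0663), within -0.146 to 0.237 over the libraries left out. It was called higher under the corrections for transcript length (0.795, adjusted p 2.99e-08 with the replicate block and 4.13e-05 without) and coding length (0.537, adjusted p 0.0046). The calls of Eif3e (-0.18), Hist1h2af (-0.0483) and Rps23 (-0.118) were lost under the correction for transcript length with and without the block, and that of Rpl36 (-0.355) without it. The cause was not tested. The planned edgeR and DESeq2 tests on reads read back were not run, and precision weights (limma-voom) were the only count-based fit. The depth of the ELA input libraries limits every loading value.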
